A study of Mus musculus with 8 samples.

Results

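The proteasome is the barrel-shaped protease that degrades ubiquitin-tagged proteins in every cell. Its core particle is built of stacked rings of alpha and beta subunits and holds the proteolytic sites. A regulatory particle of ATPases, lid subunits and ubiquitin receptors caps it, recognises the tagged protein, removes the ubiquitin and unfolds the chain into the core. Alternative activators can take the place of that cap. The subunit genes are known to be transcribed in concert, with the transcription factor NFE2L1 raising them when proteasome activity falls.

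The genes described here were those with a symbol that begins with Psma, Psmb, Psmc, Psmd or Psme and a number, leaving out Psmb8 and Psmb9. This gave 40 of 17097 measured genes, represented by 59 probe sets. The brightest probe set over all samples stood for each gene. The core held 17 genes (Psma and Psmb) and the regulatory class 21 (Psmc, Psmd and Psme). The other two, Psmc3ip and Psme3ip1, match by symbol alone: the first encodes a partner of meiotic recombinases and the second a protein that binds the activator encoded by Psme3. Psmc6, Psmd10, Psme2b and Psme4 were not analysed here, as no probe set was named for them.

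Gene expression was read on microarrays from the dermal fibroblasts of 8 mice. The back skin of 4 animals received 150 nmol GW9662, a compound that blocks the nuclear receptor PPARG irreversibly, in 300 µl acetone 3 times per week for 6 months, and that of the other 4 received 300 µl acetone alone. All were 12 months old when treatment began, per the labels, and no strain is given in the sources used here. The cells were sorted from collagenase-digested dermis as positive for Pdgfra and CD34 and negative for CD45, CD117, CD24, CD31 and EpCam, and 5000 cells per animal gave RNA that was amplified over 21 cycles. Animals of the same replicate number (1 to 4) in both groups were treated as pairs. The design describes a treated and a control mouse being collected together on a given day, but not which numbers shared a day. Values are log2 signals, on which a difference of 1 is a doubling. In a mixture of sorted cells, fewer cells of a type and less RNA per cell cannot be told apart.

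No proteasome gene passed the test between GW9662 and vehicle, and the subunits instead moved together from animal to animal, core and regulatory alike. In limma with the replicate number as a block, 0 of the 40 members had an adjusted p under 0.05 (0.0% of all genes did). At an unadjusted p under 0.05 there were 2 members, both higher, where 4.83% of all genes passed in either direction (2.41% higher, 2.42% lower). Without the block there was 1 member, Psma3, where 3.38% of all genes passed. Of the members, 28 were higher by any amount and 11 lower, and Psma5 was equal to the last digit. Over all genes 47.0% were higher and 51.8% lower. The median log2 fold change of the 40 was 0.019, against -0.005 for all genes. The 95% intervals of all 40 lay within 0.5 of 0 on the log2 scale, and those of 26 within 0.25. The widest bounds were -0.43 for Psme2 and 0.43 for Psmd6.

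**Figure D1:**
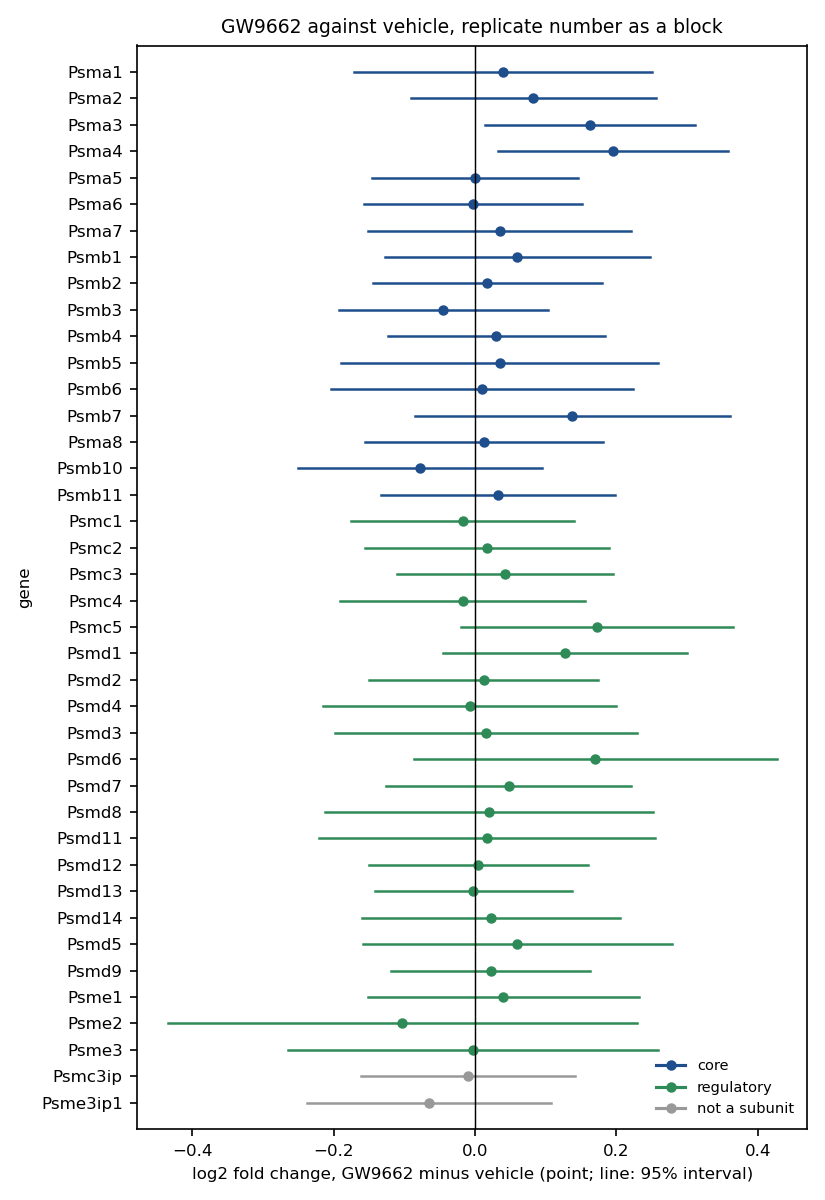
Log2 fold change of GW9662 minus vehicle (x axis) for each of the 40 genes (y axis, grouped by role), with the replicate number as a block (4 pairs). Points are estimates, lines 95% intervals, colours the class. The intervals of Psma3 and Psma4 are the ones that lie above 0.

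The alpha ring, which frames the gate of the core, held both of the members with an unadjusted p under 0.05. Psma3, a structural alpha subunit, measured 9.94, 10.05, 10.00 and 10.00 in GW9662 replicates 1 to 4 and 9.75, 9.93, 9.91 and 9.75 in vehicle. Every treated animal lay above every vehicle animal, by as little as 0.01. It was the only member whose groups did not overlap, as 1.75% of all genes did in either direction. Its log2 fold change was 0.16 ± 0.06 (SE, n = 4 pairs; limma unadjusted p = 0.0352, adjusted p = 0.966). Psma4, another alpha subunit, measured 7.76, 7.67, 7.60 and 7.47 in GW9662 and 7.52, 7.59, 7.48 and 7.13 in vehicle. The groups overlapped, while each treated animal lay above its partner by between 0.08 and 0.34. The log2 fold change was 0.195 ± 0.070 (SE; limma unadjusted p = 0.0247, adjusted p = 0.966), and the unadjusted p was 0.0923 without the block. These were the 2 members that were higher in 4 of 4 pairs, where 5.46% of all genes were, and 0 members were lower in 4 of 4 pairs, where 5.93% were. The other alpha subunits of the constitutive ring, Psma1, Psma2, Psma5, Psma6 and Psma7, had log2 fold changes between -0.0025 and 0.08.

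The beta ring carries the 3 catalytic sites of the constitutive core, in Psmb5 (chymotrypsin-like), Psmb6 (caspase-like) and Psmb7 (trypsin-like). Psmb5 measured 8.58, 8.80, 8.72 and 8.64 in GW9662 replicates 1 to 4 and 8.53, 8.65, 9.03 and 8.39 in vehicle. The vehicle animals held both the highest and the lowest value, and the log2 fold change was 0.035 with a 95% interval from -0.19 to 0.26. Psmb6 measured 9.26, 9.54, 9.20 and 9.13 in GW9662 and 9.24, 9.45, 9.50 and 8.90 in vehicle. Again vehicle 4 was lowest, and the estimated difference was 0.01 on the log2 scale (95% interval -0.20 to 0.22). Psmb7 measured 7.70, 7.71, 7.88 and 7.37 in GW9662 and 7.39, 7.77, 7.96 and 6.99 in vehicle, and had the largest SD of the 40 members over the 8 samples, 0.32. Its log2 fold change was 0.14 ± 0.10 (SE; limma unadjusted p = 0.191, adjusted p = 0.972), with vehicle 4 as the lowest animal. Of the structural beta subunits, Psmb1, Psmb2 and Psmb4 had log2 fold changes of 0.06, 0.02 and 0.03. Psmb3 was at -0.045 ± 0.064 (SE; limma adjusted p = 0.981).

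Promoter sequence was at hand for 31 of the 38 subunits from RefSeq (GRCm38.p6), as windows of 300 bases from 250 before to 50 after the gene's start. Psma8, Psmb1, Psmb2, Psmb7, Psmc3, Psmd3 and Psmd7 had none and were not searched, so the catalytic subunit Psmb7 is not covered. The antioxidant response element bound by NFE2L1 and NFE2L2 was searched as TGACNNNGC on both strands. It matched in 4 of the 31, or 12.9%, namely Psmb5, Psmb6, Psmd9 and Psmd12, and in 14.0% of the 27025 genes with such a window. The CCAAT box, the site of factor NF-Y (CCAAT, both strands), matched in 12 of 31, or 38.7%, against 41.1% of all genes. The PPAR response element, a direct repeat of AGGTCA with a single base between the copies, matched on either strand in 0 of 31 and in 0.0481% of all genes. The shares of the first and second motif in the subunits thus lay near those of all promoters. A match is a description of letters and not a site of binding. The 200 bases before the start are shown for both catalytic subunits with a response element and for both alpha subunits named above. Capitals mark TGACNNNGC in Psmb5 and Psmb6 and CCAAT in Psma3, and Psma4 has neither.
Psmb5 (chr14:54617996-54618195, minus strand): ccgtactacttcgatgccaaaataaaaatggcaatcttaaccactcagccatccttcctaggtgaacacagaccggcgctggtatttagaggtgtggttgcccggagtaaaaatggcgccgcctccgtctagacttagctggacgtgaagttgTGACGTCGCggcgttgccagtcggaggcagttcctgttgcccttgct
Psmb6 (chr11:70525157-70525356, plus strand): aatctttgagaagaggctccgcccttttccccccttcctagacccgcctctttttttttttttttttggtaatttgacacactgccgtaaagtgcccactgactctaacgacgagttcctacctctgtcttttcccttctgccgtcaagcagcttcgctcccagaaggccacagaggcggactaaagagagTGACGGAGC
Psma3 (chr12:70974423-70974622, plus strand): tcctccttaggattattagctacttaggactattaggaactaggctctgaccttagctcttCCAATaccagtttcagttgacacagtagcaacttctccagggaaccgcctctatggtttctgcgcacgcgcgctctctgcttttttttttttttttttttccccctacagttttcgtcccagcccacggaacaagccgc
Psma4 (chr9:54950659-54950858, plus strand): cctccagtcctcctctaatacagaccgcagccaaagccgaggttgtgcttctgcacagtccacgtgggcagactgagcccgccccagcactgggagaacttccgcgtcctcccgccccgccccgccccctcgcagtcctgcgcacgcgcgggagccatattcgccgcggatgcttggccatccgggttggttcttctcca
The response element letters begin 47 bases before the start of Psmb5 and 9 bases before that of Psmb6.

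Among the regulatory particle's ATPases, which unfold the substrate, Psmc5 had the largest difference. It measured 8.12, 8.30, 8.12 and 8.02 in GW9662 and 7.91, 8.02, 8.22 and 7.72 in vehicle. It was higher in pairs 1, 2 and 4 by 0.21, 0.28 and 0.30 and lower in pair 3, with a log2 fold change of 0.17 ± 0.08 (SE; limma unadjusted p = 0.0729, adjusted p = 0.966). Psmc1, Psmc2, Psmc3 and Psmc4 lay between -0.02 and 0.04. In the base, Psmd1, a scaffold subunit, was at 0.13 ± 0.07 (SE; limma unadjusted p = 0.127, adjusted p = 0.966), and was higher in 3 of 4 pairs. Psmd2, the other scaffold, was at 0.01. Psmd4, a ubiquitin receptor, was at -0.0075 with an interval from -0.21 to 0.20.

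In the lid, Psmd14, the deubiquitinase that cuts ubiquitin off the substrate, measured 8.47, 8.62, 8.45 and 8.21 in GW9662 and 8.38, 8.41, 8.62 and 8.25 in vehicle. The groups overlapped across their whole range, and the log2 fold change was 0.02 with an interval from -0.16 to 0.20. Psmd6 measured 7.82, 8.01, 7.92 and 7.67 in GW9662 and 7.83, 7.79, 8.02 and 7.10 in vehicle. Its log2 fold change of 0.17 ± 0.11 (SE) rested on pair 4, where the difference was 0.57. It was 0.04 without pair 4. The other lid genes, Psmd3, Psmd7, Psmd8, Psmd11, Psmd12 and Psmd13, lay between -0.0025 and 0.05. The assembly chaperones Psmd5 and Psmd9 were at 0.06 and 0.02.

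The same pattern over animals ran through nearly all roles. The mean of the 17 core genes was 8.33, 8.39, 8.27 and 8.20 in GW9662 replicates 1 to 4 and 8.24, 8.36, 8.38 and 8.04 in vehicle. The mean of the 21 regulatory genes was 8.11, 8.22, 8.07 and 8.01 in GW9662 and 8.08, 8.16, 8.21 and 7.84 in vehicle. In both classes GW9662 2 was highest, vehicle 3 next, GW9662 4 second lowest and vehicle 4 lowest. Over the 8 samples the 2 means had a Pearson r of 0.987 and a Spearman rho of 0.976, given as a description, and the points share the array each mean comes from. Without vehicle 4 and GW9662 4, the 2 samples farthest from the median of the core mean, r was 0.930 (n = 6). With the group means subtracted it was 0.988.

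**Figure D2:**
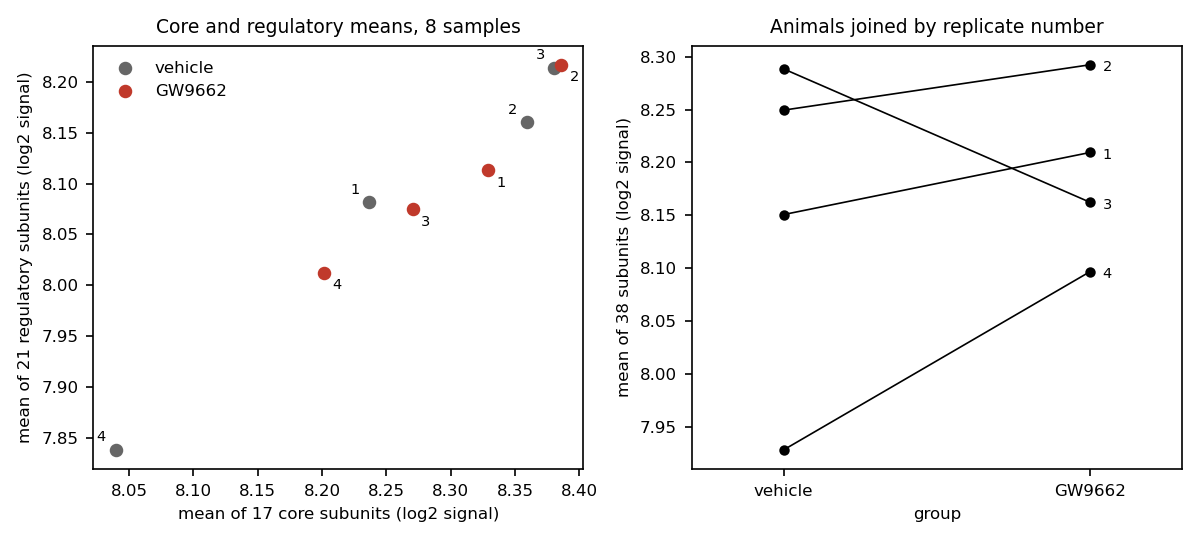
Left, mean log2 signal of the 21 regulatory genes (y axis) against that of the 17 core genes (x axis), 1 point per animal, numbered by replicate and coloured by group. Right, mean of all 38 subunits in vehicle and GW9662, with animals of one replicate number joined. The 8 points on the left lie near a line with vehicle 4 at its lower end, and 3 of the 4 lines on the right go up and that of pair 3 goes down.

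The difference between the classes was steadier than either class. Core minus regulatory ranged over 0.06 between the 8 arrays, while the core mean ranged over 0.35 and the regulatory mean over 0.38. It was 0.192 ± 0.019 (SD, n = 4) in GW9662 and 0.180 ± 0.023 in vehicle. The level of this difference has no meaning, since different probe sets respond differently. Its change was 0.012 ± 0.020 (SE, n = 4 pairs), with 0.06, -0.03, 0.03 and -0.01 in pairs 1 to 4, so pairs 1 and 3 differed upward and pairs 2 and 4 downward. By class, the mean log2 fold change was 0.043 ± 0.058 (SE) for core and 0.031 ± 0.065 for regulatory genes. In pairs 1 to 4 the core change was 0.09, 0.03, -0.11 and 0.16, and the regulatory change 0.03, 0.06, -0.14 and 0.17. The spread between pairs exceeded the mean change in both classes. Without pair 4 the core mean was 0.0029 and the regulatory mean -0.017, and without vehicle 4 in the fit without the block they were -0.029 and -0.048. Without pair 3 they were 0.09 and 0.09. The difference between the classes was -0.0042 without pair 1.

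Vehicle 4 alone held the lowest value in 25 of the 38 subunits, where it was lowest in 17.1% of all genes and in 27.3% of the 8546 brighter genes. Ties of vehicle 4 with another sample are left out of these counts and shares. It was lowest in all 5 ATPases, in 6 of 7 alpha and 6 of 7 beta genes of the constitutive rings, and in 4 of 8 lid genes. The remaining alpha gene, Psma3, was tied for lowest in vehicle 1 and vehicle 4 (9.75). GW9662 2 was highest in 14 subunits and vehicle 3 in 12, with Psmd14, tied between them (8.62), counted for GW9662 2. Vehicle 4 also stood apart on the first principal component of all genes (22.2, against -10.4 to 5.49 in the other 7). The count of members lower in GW9662 depended on it, at 11 of 40 with all pairs, 23 without pair 4, and 29 without vehicle 4 in the fit without the block. The median log2 fold change was -0.012 and -0.053 in these fits. The count was 5 without pair 3, with a median of 0.08.

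**Figure D3:**
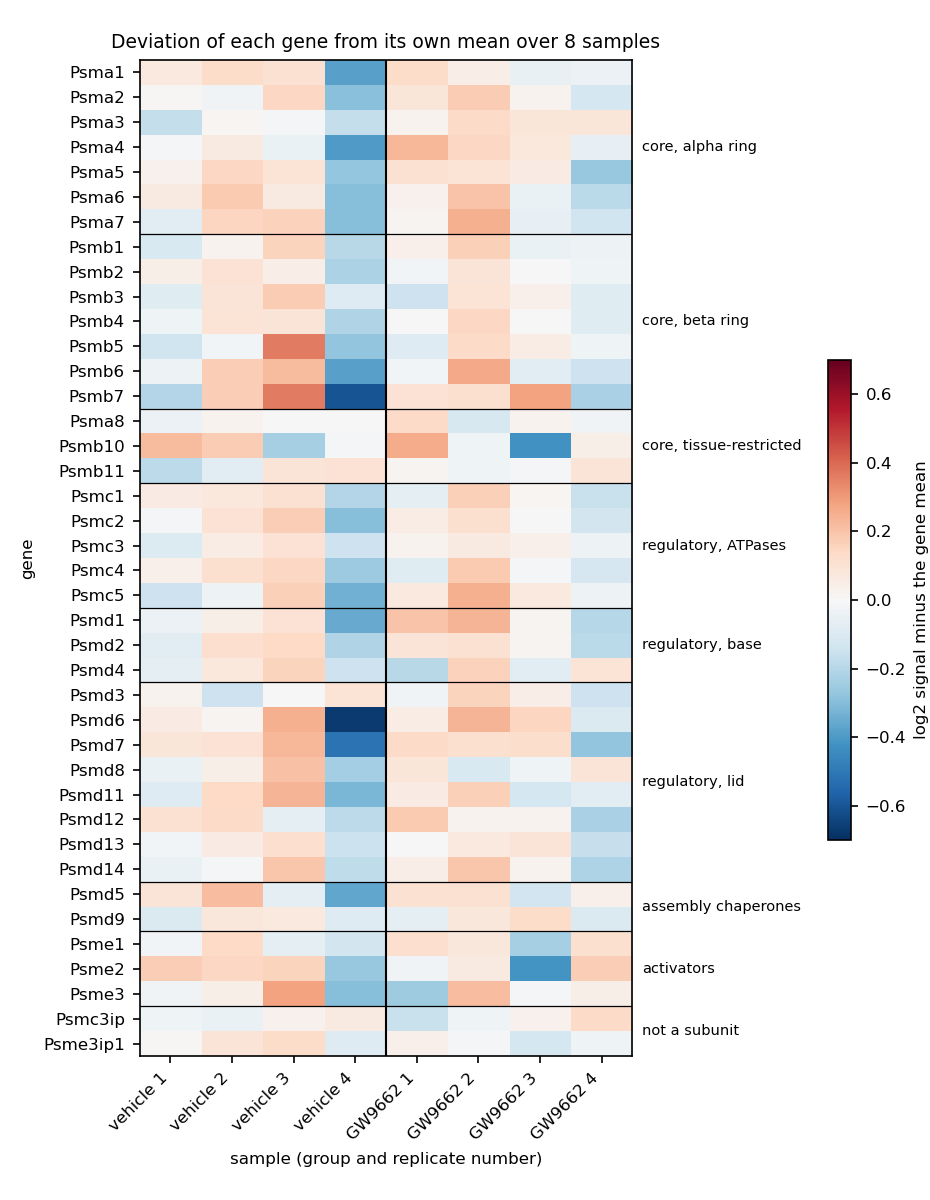
Log2 signal minus the gene's own mean over the 8 samples (colour) for each of the 40 genes (rows, by role) in each animal (columns, vehicle left of the line). Vehicle 4 alone is the lowest column for 25 of 38 subunits, whereas Psmb10, Psmb11, Psma8 and Psmd3 do not follow it.

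How closely each subunit followed the rest was described by its correlation with the mean of all other subunits over the 8 samples. The median r was 0.86 over the 38 subunits, against -0.056 for all genes and 0.18 for the brighter genes, and 22 of 38 (57.9%) exceeded 0.8, as 4.67% of all genes did. Without vehicle 4 the median was 0.71 over the subunits and 0.01 over all genes. Within core pairs the median r was 0.64, within regulatory pairs 0.60 and between the classes 0.65. Psmc2, an ATPase, Psmb4, a structural beta subunit, Psmb6 and Psma7 followed most closely, with r of 0.99, 0.98, 0.97 and 0.96. Psma3 stood lower at 0.56, and at 0.15 without vehicle 4. Psma4 had 0.78, and 0.29 without vehicle 4. The genes below 0.5 were Psma8, Psmb10, Psmb11, Psmd3, Psme1 and Psme2. Psma8, of the testis core, and Psmb11, of the thymus core, were the dimmest members, with means over the 8 samples of 3.70 and 3.95, below the sample medians of 4.63 to 4.69. Without detection calls, whether they were above background is not known.

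Psmb10, Psme1 and Psme2 belong with Psmb8 and Psmb9 to the interferon-inducible genes of the immunoproteasome, which takes up other catalytic subunits and the activator of Psme1 and Psme2. Psmb10 measured 9.44, 9.15, 8.76 and 9.22 in GW9662 replicates 1 to 4 and 9.40, 9.36, 8.95 and 9.17 in vehicle. Its lowest animals were GW9662 3 and vehicle 3, and vehicle 4 lay in mid-range. The log2 fold change was -0.08 ± 0.07 (SE; limma adjusted p = 0.972), with pairs 1 and 4 above 0 and pairs 2 and 3 below. Psme2 measured 7.86, 7.95, 7.47 and 8.06 in GW9662 and 8.06, 8.03, 8.04 and 7.62 in vehicle, with its lowest values in GW9662 3 and vehicle 4. Its log2 fold change was -0.10 with an interval from -0.43 to 0.23. Psme1 was at 0.04, and again had its lowest value in GW9662 3 (8.56, against 8.66 to 8.93 in the other 7).

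Psmb8, which the choice of genes left out, measured 10.06, 9.76, 9.51 and 9.83 in GW9662 and 9.89, 10.06, 9.71 and 9.76 in vehicle. Its order over animals resembled that of Psmb10 (r = 0.93, n = 8, and 0.94 without vehicle 4) and of Psme1 (r = 0.83). Psmb9 followed these less closely, with r of 0.50 with Psmb8 and 0.49 with Psmb10. The log2 fold changes of Psmb8 and Psmb9 were -0.065 ± 0.091 and 0.14 ± 0.09 (SE; limma adjusted p = 0.981 and 0.972). Psme3, which encodes the nuclear activator and is not of this group, had r = 0.71 with the other subunits and a log2 fold change of -0.0025.

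**Figure D4:**
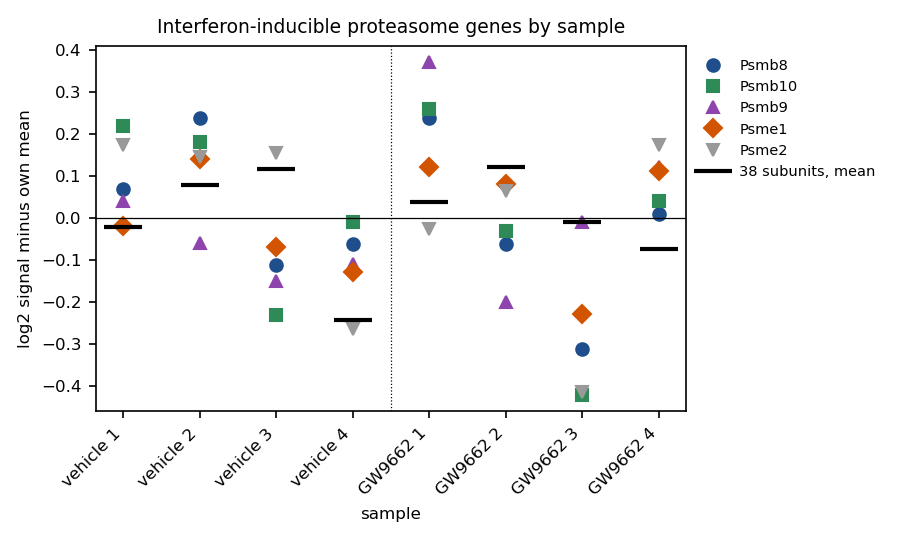
Log2 signal minus the gene's own mean (y axis) of Psmb8, Psmb9, Psmb10, Psme1 and Psme2 in each animal (x axis), with the mean of the 38 subunits as a black bar. Psmb8, Psmb10, Psme1 and Psme2 are low in GW9662 3, where the subunit mean is near its average, and Psmb8 and Psmb10 lie near their average in vehicle 4, where the subunit mean is lowest.

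Genes that act with the proteasome were read from lists chosen by function. Of 16 further subunits, assembly and associated factors, 13 were measured, 9 higher and 4 lower, with a median of 0.025. Over all genes 47.0% were higher and 51.8% lower. At an unadjusted p under 0.05, where 4.83% of all genes passed, there was 1 of the 13. It was Psmg4, an assembly chaperone of the core, at -0.21 ± 0.08 (SE; limma unadjusted p = 0.038, adjusted p = 0.966). The median r of the 13 with the subunit mean was 0.45, from -0.15 for Ube3c, a ubiquitin ligase, to 0.95 for Uchl5, a deubiquitinase of the cap. Uchl5 had a mean of 4.28, below the sample medians, so that whether it was above background is not known. Pomp, the maturation factor of the core, was at 0.05 with r = 0.94, and Psmg4 had r = -0.02. Of 14 genes for ubiquitin, its shuttles and the unfoldase that extracts substrates, 7 were measured, 5 higher and 2 lower (median 0.05). Rad23b, a shuttle that carries ubiquitinated proteins to the proteasome, measured 5.76, 5.69, 5.68 and 5.53 in GW9662 and 5.14, 5.61, 5.66 and 5.03 in vehicle. It was higher in 4 of 4 pairs, in pairs 2 and 3 by under 0.1, with a log2 fold change of 0.305 ± 0.111 (SE; limma unadjusted p = 0.0257, adjusted p = 0.966). Nploc4, an adaptor of the unfoldase, was at 0.155 ± 0.065 (SE; limma unadjusted p = 0.0449, adjusted p = 0.966), higher in 4 of 4 pairs. Over all genes 5.46% were higher in 4 of 4 pairs, and 4.83% had an unadjusted p under 0.05 in either direction. Without the block the limma unadjusted p was 0.052 for Rad23b and 0.283 for Nploc4.

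Nfe2l1 itself measured 7.14, 7.18, 7.19 and 7.33 in GW9662 and 7.19, 7.35, 7.37 and 7.23 in vehicle. Its log2 fold change was -0.075 with an interval from -0.24 to 0.09, and its r with the subunit mean was 0.13. Of 10 genes of the NFE2L1 axis, 9 were measured, 4 higher and 4 lower, with a median of 0. They were Nfe2l1, Nfe2l2, Ngly1, Mafg, Maff, Mafk, Hmox1, Nqo1 and Gclm, so the list is not one of NFE2L1 alone. Mafg, a small Maf partner, was the 1 of the 9 with an unadjusted p under 0.05, where 4.83% of all genes passed. It was at 0.16 ± 0.07 (SE; limma unadjusted p = 0.0478, adjusted p = 0.966), and its unadjusted p was 0.111 without the block.

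The subunits were set beside the cytosolic ribosomal proteins and the respiratory chain. Of 74 ribosomal protein genes 72 were lower and 2 higher in GW9662, with a median of -0.10, where 51.8% of all genes were lower. With an adjusted p under 0.05 there were 0 of them. Their mean changed by -0.24, 0.002, -0.15 and -0.05 in pairs 1 to 4, and genes that vary together do not replicate a treatment. Vehicle 4, lowest in the proteasome mean, was highest in the ribosomal mean (10.40, against 10.08 to 10.35 in the other 7). Of 79 respiratory chain and ATP synthase genes 55 were lower (median -0.04), with changes of their mean of -0.12, 0.03, -0.15 and 0.08 in pairs 1 to 4. Their mean was highest in GW9662 2, vehicle 3 and vehicle 2, in that order, as was the subunit mean, and vehicle 4 was second lowest after GW9662 1. Over the 8 samples the mean of the 38 subunits had r = -0.51 (rho = -0.57) with the ribosomal mean and r = 0.63 (rho = 0.69) with the respiratory mean. Without GW9662 4 and vehicle 4 these were 0.26 and 0.69 (n = 6), so the sign of the first rested on those samples.

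Of the genes that mark the cells, 6 of 10 fibroblast markers were lowest in vehicle 4, as 17.1% of all genes and 27.3% of the brighter genes were. The mean over that list was 10.15 in vehicle 4, against 10.28 to 10.41 in the other 7. Dpt was highest in vehicle 4 (11.46), and Dcn, the brightest, was highest in vehicle 4 and vehicle 2 (12.67). Cd34 lay between 10.49 and 10.81 and Col1a1 between 12.25 and 12.59. The other positive sort marker, Pdgfra, lay between 4.63 and 5.13, near the sample medians. All 10 leukocyte markers were measured. Their summed linear signal was 254 to 294 in GW9662 and 263 to 312 in vehicle, where vehicle 4 was highest. Cd79a, the brightest of them, was highest in vehicle 4 (7.29), as were Cd52, C1qa and Cd3e. Ptprc (CD45) lay between 2.81 and 3.01 and was lowest in vehicle 4. Tyrobp was lowest in vehicle 4 and GW9662 1 (3.94). The remaining leukocyte markers had neither their highest nor their lowest value in vehicle 4. All 6 endothelial markers were measured, with sums of 302 to 445 in GW9662 and 259 to 587 in vehicle. The endothelial mean was high in vehicle 4 (5.55) and in vehicle 3 (5.57), which were at opposite ends of the subunit mean. The widest ranges in that list were those of Kdr (6.72 to 8.58) and Tek (5.53 to 6.71). Pecam1 (CD31) was highest in GW9662 4 (5.27) and Egfl7 in GW9662 3 (5.58). Cdh5 and Emcn had means of 4.075 and 3.59, below the sample medians. Of the 9 marker lists, vehicle 4 had the highest mean in 5 (leukocyte, keratinocyte, adipocyte, melanocyte and Schwann, and skeletal muscle), the second highest in 3 (mast cell, endothelial and mural) and the lowest in 1, the fibroblast list. The adipocyte mean, over 3 of 6 markers, was 4.28 in vehicle 4 and 4.06 to 4.16 in the other 7. The melanocyte and Schwann mean, over 4 of 6, was 4.70 against 4.55 to 4.66, and the keratinocyte mean, over 8 of 8, was 4.64 in vehicle 4 and in GW9662 2. Krt5, Krt14 and Krt15 were highest in vehicle 4 and Krt10, the brightest, was lowest there (6.66). By summed linear signal vehicle 4 was not highest for keratinocytes (284, against up to 297 in GW9662 and 300 in vehicle). The skeletal muscle mean was 4.115 in vehicle 4 and 4.113 in vehicle 2. The means of the 5 lists highest in vehicle 4 lay near or below the sample medians (4.63 to 4.69). Whether many of their genes were above background is not known. The mural mean, over 4 of 6 markers, was lower in GW9662 in 4 of 4 pairs, by 0.18 ± 0.12 (SE) on the log2 scale. Pair 3 was at -0.53 and pair 2 at -0.005. Of the genes in it, Kcnj8 alone (-0.39) was lower in 4 of 4 pairs, as 5.93% of all genes were. Rgs5 and Notch3 were higher in 3 of 4 pairs and Myh11 in 2. Genes of the response to dissociation had a mean of 10.44 in vehicle 4, within the range of the others (10.11 to 10.56). The part of these lists in the low subunit values of vehicle 4 was not tested.

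More than 1 probe set was present for 12 members, with 19 further sets. Of the 8 further sets with a mean above 6, 7 correlated with the chosen set at r over 0.5, and of the 11 dimmer ones 2 did. The exception was a set of Psmd11, a lid subunit, whose chosen set was at 0.02. That set measured 6.13, 6.34, 5.94 and 6.43 in GW9662 and 6.43, 6.56, 6.55 and 6.66 in vehicle, lower in 4 of 4 pairs by 0.34 ± 0.08 on the log2 scale (SE; limma unadjusted p = 0.00373, adjusted p = 0.946 over all named probe sets). It had r = -0.0019 with the chosen set, so these sets of the gene disagreed. The second brightest set of Psmd11 (mean 7.70) had r = 0.69 with the chosen set and was at -0.05.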

How the data were processed

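The deposited values are log2 signals of 45141 probe sets in 8 samples. RMA and affy are listed in the submitters' processing notes, with no version. The base of the logarithm is not stated and was inferred from their range. Names came from the platform's annotation, updated with the RefSeq gene table (GRCm38.p6). A single gene was given for 28898 and several for 551, which were not used, and 15692 had no name here. Each value column belonged to a known sample. RMA equalises arrays, so a shift shared by all genes is not seen, and there were no detection calls.

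GW9662 minus vehicle was fitted over all 17097 genes with limma 3.58.1 in R 4.3.3 (lmFit, eBayes, replicate number as a block, two-sided, Benjamini-Hochberg over all genes, threshold 0.05). The design gives shared collection days but does not tie them to the replicate numbers. The numbers were taken as pairs by plan, as the labels number the animals of both groups 1 to 4. After the group means were subtracted, samples 1 to 4 of both groups had correlations of 0.203, 0.163, 0.114 and 0.165 with their namesake. These describe the pairs and were not the ground for pairing. The highest correlation with another number was 0.159, 0.159, 0.111 and 0.060, so the margin was narrow for numbers 2 and 3. On simulated data this fit recovered 47% of log2 changes of 0.5, 91% of changes of 1 and 99.5% of changes of 2, with 3, 3 and 6 false calls. Each simulation gave a fixed number of genes a change of the same size, with noise independent between genes. The share recovered depends on that number, so it need not hold for these data. Precision is limited by how many animals, and so arrays, there were.

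Class means and correlations are descriptions without a p. Values are given in full for the members of smallest p in each direction, the catalytic and other fixed members, the most variable and the dimmest. The members, gene lists and named genes were chosen with earlier results of these data known. Alternatives were the fit without the block, trend and robust variances, array weights, brighter genes alone, averaging over a gene's probe sets, quantile normalization once more, centring on medians, all probe sets, and leaving out pairs or vehicle 4.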

Additional observations from a re-analysis of the deposited data

Results flagged for a closer look

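In 6 of 92 tests of a group of 4 animals, 1 animal lay far from the other 3, where chance gives such a result in about 1 of 20. The count is thus near the chance rate, and the tests are not independent, since the subunits varied together. Vehicle 4 was low in Psma1 (7.67, others 8.12 to 8.18), in Psmc1 (8.11, others 8.37 to 8.42) and in Psme2 (7.62, others 8.03 to 8.06). GW9662 4 was low in Psma5 (7.93, others 8.25 to 8.30) and in Psmd7 (7.82, others 8.21 to 8.23). GW9662 3 was low in Psme1 (8.56, others 8.87 to 8.91).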

How the results depend on the processing

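All values here are log2 fold changes or counts for GW9662 against vehicle. Alternatives are listed for the 20 members named by rule, where 212 values kept their direction, 1 was 0 and 25 reversed. Of the counts, 36 stayed within 1.5 times and 13 moved. The cause was not tested. With no replicate block 1 member had an unadjusted p under 0.05, and with brighter genes alone 1 member and 418 genes did, against 2 and 825. Leaving out 1 pair gave 0 to 1 genes with an adjusted p under 0.05 (1 without pair 4, Col14a1), 508 to 985 genes and 0 to 4 members with an unadjusted p under 0.05, and 5 to 23 members lower.

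With no replicate block and without vehicle 4, 0 members had an unadjusted p under 0.05 and 29 were lower, with Psmd6 at -0.025, Psmb7 at -0.042, Psmb5 at -0.052, Psmb6 at -0.114 and Psmd14 at -0.0325. Psmb6 was at -0.0023 after quantile normalization, Psmd4 at 0.0375 as the mean of its probe sets and Psme3 at 0.0025 after centring on medians. Over the fits without 1 pair, 26 of all 40 members changed sign at least once (12, 4, 8 and 12 without pairs 1 to 4). Of the 20 named these did: Psme2 (-0.283 to 0.053), Psmc1 (-0.053 to 0.017), Psmc4 (-0.07 to 0.03), Psmb5 (-0.037 to 0.15), Psmb6 (-0.063 to 0.113), Psmd4 (-0.09 to 0.067), Psmd14 (-0.04 to 0.087), Psme1 (-0.027 to 0.107), Psme3 (-0.117 to 0.097), Psma8 (-0.043 to 0.063) and Psmb11 (-0.023 to 0.077). Psma3 and Psma4 stayed higher in every fit run. For the fits without 1 pair this was fixed in advance, since both were higher in 4 of 4 pairs. Psmc5 (0.09 to 0.26) and Psmd1 (0.03 to 0.20) also stayed higher in every fit. With 4 arrays a group, 47% of simulated log2 changes of 0.5 were recovered, so smaller changes of a member may go uncalled.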
